A study of Arabidopsis thaliana with 24 samples.

Results

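The comparison described here sets grf6 grf8 double mutants of Arabidopsis thaliana against wild type (WT) after 4 h of dehydration. Its members were chosen by the sample titles alone and are 8 of the 24 RNA-seq libraries of the study, 4 of each genotype. The other 16 libraries hold the same genotypes at 0 h and 2 h, 4 per group, and were used for the shared estimate of spread and for the time comparison. All plants were 24 days old, of which 12 days were spent on plates and 12 on soil, and mRNA of rosette leaves was sequenced. The mutant is named for GRF6 and GRF8, and WT carries neither mutation. The kind and place of each mutation, the time of day of harvest and any pooling of plants are not given in the sources used here. No group kept watered until 4 h was analysed here, so the genotypes are compared at the same time under the same treatment.

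GRF6 and GRF8 encode 14-3-3 proteins, adaptor proteins that bind phosphorylated partners as dimers and change their activity, stability or place in the cell. In plants their known partners include the plasma membrane proton pumps, nitrate reductase and transcription factors of abscisic acid (ABA) and brassinosteroid signalling. ABA is the hormone through which a drying leaf closes its stomata and turns on protective genes. The comparison asks which transcripts differ when these family members are impaired in leaves that are already dehydrated.

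Totals of the 8 libraries ran between 17.5 and 19.7 M counts (median 18.1 M), and 18841 of the 27664 genes listed had enough counts to be tested. They did not differ evenly within their groups. Against the other 5 libraries at 4 h, WT replicate 4 and grf6 grf8 replicates 1 and 2 were rich in transcripts of DNA replication and mitosis, which are scarce in grown leaves. A cell division score, the mean of log2 CPM (counts scaled to the library total) over 31 such genes, was -0.46, -0.13, -0.34 and 2.17 in WT replicates 1 to 4 and 2.23, 1.80, -0.04 and -0.28 in the mutant replicates. The 16 libraries at 0 h and 2 h ran from -0.36 to 1.16. Over the mitosis genes alone, the 3 rich libraries stood at 1.79, 1.97 and 1.52, above all others (at most 0.36, WT replicate 4 at 2 h). Over the DNA replication genes alone, the 8 libraries at 0 h ran from 1.64 to 2.46. Mutant replicate 2 at 4 h lay within that range, and WT replicate 4 and mutant replicate 1 lay above it at 2.69 and 2.59. The other 5 libraries at 4 h lay below it, at 0.57 to 0.97. In the score of all 31 genes at 4 h, the mutant exceeded WT by 0.62 on average (0.93 ± 1.27 against 0.31 ± 1.25, SD, n = 4). An exact two-sided permutation test did not separate the genotypes (p = 0.457, the smallest possible being 0.0286).

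The same 3 libraries were high in markers of young tissue. The summed level of 9 genes of young leaf growth and meristems was 45.7 CPM in WT replicate 4 and 35.0 and 25.1 CPM in mutant replicates 1 and 2, against 0.837 to 1.73 CPM in the other 5. Of the 9 genes, only CLV3, which defines stem cells of the shoot apex, had no count in any of the 8 libraries. The summed level of 7 genes of the stomatal lineage was 10.9 to 12.3 CPM in those 3 libraries and 0.338 to 0.962 CPM in the others. In bulk leaves, more cells of a kind and more RNA per cell cannot be told apart. Over all 24 libraries, transcripts of 5724 genes rose with the score (30.4%) and those of 5205 fell (27.6%) at an adjusted p under 0.05. The genotypes were therefore compared both without the score and with it as a covariate of each gene, and the coefficient of variation between replicates was 32.9% without it and 23.3% with it.

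**Figure D1:**
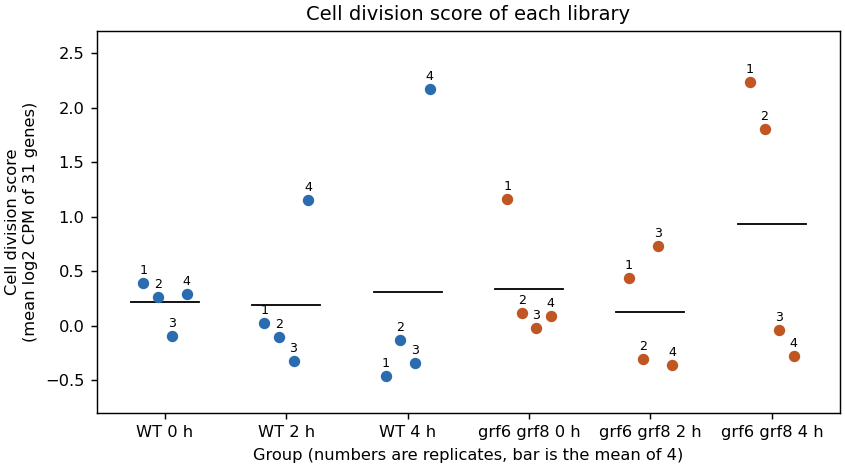
Cell division score of each library (vertical axis, mean log2 CPM of 31 genes) in the 6 groups, numbered by replicate, with the group mean of 4 as a bar. At 4 h, WT replicate 4 and grf6 grf8 replicates 1 and 2 lie between 1.80 and 2.23 and the other 5 libraries between -0.46 and -0.04.

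Without the score, 1 of 18841 genes was called higher in the mutant (0.00531%) and 2 were called lower (0.0106%), 3 in all (0.0159%), by edgeR's quasi-likelihood test at a Benjamini-Hochberg adjusted p under 0.05, and 731 genes had an unadjusted p under 0.05. GRF6 (AT5G10450, chr5:3283853-3286537, minus strand, TAIR10.1) stood at 611, 667, 796 and 316 CPM in WT replicates 1 to 4 and at 44.8, 43.7, 44.5 and 63.9 CPM in the mutant replicates. Every mutant library lay far below every WT library, with a log2 fold change of -3.60 (SE 0.265, adjusted p = 1.17e-07). MSTRG.13239, an assembled transcript that the files give no locus for, stood at 4.56, 3.86, 4.96 and 7.28 CPM in WT and at 0.0505, 0.0482, 0 and 0 CPM in the mutant (adjusted p = 1.52e-06). Its mutant mean was likewise 0.062 CPM at 2 h and 0.09 CPM at 0 h, against 7.18 and 11.6 CPM in WT.

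The gene called higher was AT2G16365, annotated as an F-box family protein (chr2:7074119-7079519, plus strand). It stood at 25.5, 25.4, 23.0 and 23.8 CPM in WT and at 43.7, 46.4, 40.1 and 34.5 CPM in the mutant, so the genotypes did not overlap, and its slope on the score was near 0 (-0.00). The log2 fold change was 0.76 (SE 0.116, adjusted p = 0.0112). At 2 h and 0 h the genotypes differed by 0.11 and -0.21 on the log2 scale, with the score, and the change of the difference from 0 h to 4 h had an adjusted p of 0.0548. Annotated genes AT2G06615 and AT2G16360 overlap it, and whether counting used strand is not given in the sources used here. Without the 3 libraries rich in division transcripts it was not called in either fit (0.63 with the score, adjusted p = 0.231). Without WT replicate 4 it was called without the score and not with it (0.73 with the score, adjusted p = 0.123). In the fit without the score it was also not called when WT replicate 3 or mutant replicate 1 was left out.

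With the score as covariate, 20 genes were called higher (0.106%) and 25 lower (0.133%), 45 in all (0.239%), and 2422 genes had an unadjusted p under 0.05. All 45 had the same sign without the score, and 16 of them differed by at least 1 on the log2 scale. Apart from GRF6 and MSTRG.13239, log2 fold changes ran from 0.40 to 1.70 with a median of 0.76 among the 20 higher genes, and from -3.20 to -0.49 with a median of -0.84 among 23 lower ones. The genotypes did not overlap in CPM for 8 of the 20 higher and 10 of the 25 lower genes, against 0.541% and 1.05% of all genes tested. After the fitted slope was taken off, 20 and 24 did not overlap, against 4.3% and 3.62% of all genes. These genes were chosen by the fit to the same libraries, so more separation than among all genes follows from the choice.

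These calls depended on which libraries were in the fit. Without the 3 rich libraries 1 gene was called higher (GRF5) and 3 were called lower, 2 of which are GRF6 and MSTRG.13239. Leaving out WT replicate 4 alone left 1 and 2 calls, and leaving out mutant replicate 4, which is not rich, left 4 and 4. A fit of only the 8 libraries at 4 h, with the 3 rich ones kept, gave 0 and 2. Without the 3 libraries 44 of the 45 genes could be tested, all 44 kept their sign, and the log2 fold change was a median 0.846 of its value with all libraries (0.612 to 1.26). Which part of each difference comes from tissue makeup was not tested beyond the covariate.

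**Figure D2:**
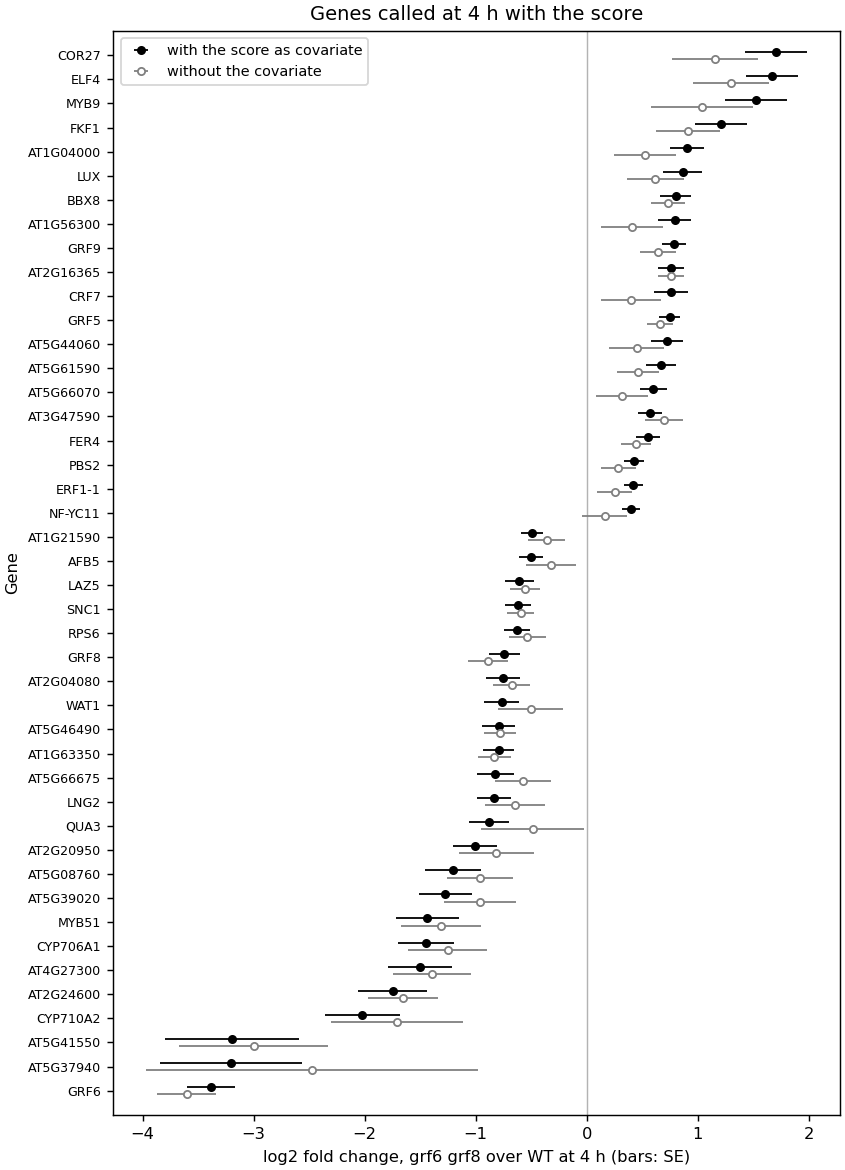
Log2 fold change of grf6 grf8 over WT at 4 h (horizontal axis, bars are SE) for 44 of the 45 genes called with the score, filled with the covariate and open without it. MSTRG.13239 is not drawn because its mutant libraries held almost no counts. Filled and open points share their sign for each gene, and the open bars are the wider except for AT2G16365 and AT5G46490.

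Of 13 members of the 14-3-3 family 11 were tested, 2 were called higher (GRF5 and GRF9) and 2 lower (GRF6 and GRF8) with the score, and the median log2 fold change was 0.33 against 0.02 over all genes tested. GRF5 (AT5G16050, chr5:5243555-5245838, minus strand) stood at 141, 147, 127 and 106 CPM in WT and at 198, 179, 212 and 233 CPM in the mutant. The genotypes did not overlap, and the level was 1.68-fold higher with the score (log2 0.75, SE 0.0917, adjusted p = 0.000453). It was called without the 3 rich libraries (0.72, adjusted p = 0.0415), without WT replicate 4 (0.71, adjusted p = 0.0129) and at both other times with the score (0.55 at 2 h, adjusted p = 0.0102, and 0.60 at 0 h, adjusted p = 0.00386). It was not called in edgeR's main fit without the score (0.66, adjusted p = 0.0717), nor with the score when the fit held only the 8 libraries at 4 h (0.72, adjusted p = 0.163). Without the score, it was called by DESeq2, with the stricter filter on low counts and without mutant replicate 2, and under no other alternative.

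GRF9 (AT2G42590, chr2:17731830-17733982, minus strand) stood at 156, 169, 141 and 95.5 CPM in WT and at 185, 194, 226 and 271 CPM in the mutant. All mutant libraries again exceeded all WT libraries, by 1.72-fold with the score (log2 0.78, SE 0.110, adjusted p = 0.00221). It was also called at 2 h (0.81, adjusted p = 0.00132) and not at 0 h (0.49, adjusted p = 0.195). At 4 h it was not called without WT replicate 4 (0.68, adjusted p = 0.103) or without the 3 rich libraries (0.71, adjusted p = 0.219).

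GRF8 (AT5G65430, chr5:26148150-26150593, minus strand) was less reduced than GRF6. It stood at 106, 121, 129 and 68.0 CPM in WT and at 46.2, 49.8, 54.7 and 78.7 CPM in the mutant, where replicate 4 exceeded WT replicate 4. The TMM factors of these libraries were 0.843 and 1.28, so their order depends on that scaling. The log2 fold change was -0.74 with the score (SE 0.139, adjusted p = 0.0271) and -0.89 without it (adjusted p = 0.173). With the score it was -0.81 without the 3 rich libraries (adjusted p = 0.346) and -0.89 without WT replicate 4 (adjusted p = 0.0626). Without the score, GRF8 was called by DESeq2, with the stricter filter on low counts, without WT replicate 4 and without mutant replicate 4, and under no other alternative. At 0 h the difference was -1.78 with the score, where WT averaged 290.0 CPM and the mutant 83.0 CPM. The change from 0 h to 4 h was not called (adjusted p = 0.145).

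On the length-scaled FPKM of the authors' deposited files, GRF6 was the highest family member in WT at 4 h (398 ± 94.6, SD, n = 4) and stood at 34.1 ± 3.55 in the mutant. GRF3 (253 ± 48.7) and GRF1 (251 ± 12.9) were the highest in the mutant, and GRF5 was at 177 ± 9.06 and GRF9 at 174 ± 8.34. Other tested members had log2 fold changes with the score of 0.50 (GRF2, adjusted p = 0.0659), 0.36 (GRF7 and GRF1), 0.33 (GRF3), 0.25 (GRF4), 0.06 (GRF10) and -0.17 (GRF11), none of them called by edgeR. DESeq2 called GRF2 with the score (0.51, adjusted p = 0.00336). GRF13 had no count and GRF12 at most 1 in any library. Transcripts of paralogous family members can share reads, and how the authors' counting divided them is not known in detail.

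Genes of the circadian clock and of day length responses were among those called higher. The clock keeps daily time through genes that repress each other in turn, and ELF4 and LUX form with ELF3 the evening complex, which represses transcription at dusk and in the night. Of 17 clock genes tested, 3 were called higher with the score (ELF4, FKF1 and LUX) and 0 lower, 11 were above 0, and the median log2 fold change was 0.23. At an unadjusted p under 0.05, 7 were higher (41.2%, against 7.35% of all genes) and 2 lower (11.8%, against 5.51%). COR27, a cold-induced gene under clock control, and BBX8, a B-box protein of the CONSTANS-like kind, were called higher outside that list.

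ELF4 (AT2G40080) stood at 26.7, 32.8, 30.1 and 11.1 CPM in WT and at 33.6, 65.4, 55.5 and 92.6 CPM in the mutant. The lowest mutant library, replicate 1, lay just above the highest WT library, and the fitted level was 3.18-fold higher with the score (log2 1.67, SE 0.235, adjusted p = 0.00221). Without the score the log2 fold change was 1.295 (adjusted p = 0.730). It was 1.399 without the 3 rich libraries (adjusted p = 0.147) and 1.55 without WT replicate 4 (adjusted p = 0.0626), and neither was called.

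COR27 (AT5G42900) had the highest fold change of the genes called, 1.70 with the score (SE 0.276, adjusted p = 0.0117). Its levels were 45.0, 58.3, 55.6 and 11.2 CPM in WT against 58.5, 91.5, 87.9 and 141 CPM in the mutant. WT replicate 4 was the lowest and mutant replicate 4 the highest, and the groups were apart by a small margin at mutant replicate 1. Without the score it gave 1.15 (adjusted p = 1.00), and with the score but without WT replicate 4 it gave 1.33 (adjusted p = 0.1799).

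FKF1 (AT1G68050), a blue light receptor that promotes flowering in long days, stood at 40.7, 54.6, 32.3 and 18.4 CPM in WT and at 60.6, 65.6, 64.1 and 83.8 CPM in the mutant. No mutant library fell within the WT range (log2 1.21 with the score, SE 0.233, adjusted p = 0.0299). LUX (AT3G46640), the DNA-binding member of the evening complex, stood at 46.8, 54.2, 39.9 and 21.8 CPM in WT and at 37.9, 61.9, 61.9 and 88.0 CPM in the mutant. Here the groups overlapped, since mutant replicate 1 lay below 3 WT libraries (log2 0.86, SE 0.178, adjusted p = 0.0425). BBX8 (AT5G48250) stood at 22.4, 24.9, 24.0 and 21.2 CPM in WT and at 31.9, 39.8, 39.0 and 42.7 CPM in the mutant. Its WT libraries were close together and all lay below the mutant (log2 0.80, SE 0.141, adjusted p = 0.0224). Without WT replicate 4 the adjusted p was 0.456 for FKF1, 0.588 for LUX and 0.179 for BBX8, with log2 fold changes of 1.03, 0.74 and 0.86.

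ELF3, the remaining part of the evening complex, had a log2 fold change of 0.47 with the score (adjusted p = 0.166), and TOC1, an evening repressor of morning genes, 0.49 (adjusted p = 0.182). The morning genes CCA1 and LHY gave -0.13 (adjusted p = 0.847) and -0.60 (adjusted p = 0.360). None of these 4 was called by edgeR, and DESeq2 called 5 clock genes higher with the score, ELF3 and TOC1 among them. TOC1, CCA1 and LHY are named for their known place in the clock, after their values were seen.

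The annotated start regions of LUX, FKF1 and BBX8, of the genes called higher, are shown because they share a short sequence. AATATCT is the core of the evening element, a promoter sequence through which clock proteins act. Each line is the 250 bases upstream of the RefSeq gene start, read 5′ to 3′ on the gene's strand, with AATATCT and its reverse complement AGATATT in capitals. The regions in TAIR10.1 are chr3:17182792-17183041 (plus) for LUX, chr1:25508389-25508638 (plus) for FKF1 and chr5:19563833-19564082 (minus) for BBX8.
LUX: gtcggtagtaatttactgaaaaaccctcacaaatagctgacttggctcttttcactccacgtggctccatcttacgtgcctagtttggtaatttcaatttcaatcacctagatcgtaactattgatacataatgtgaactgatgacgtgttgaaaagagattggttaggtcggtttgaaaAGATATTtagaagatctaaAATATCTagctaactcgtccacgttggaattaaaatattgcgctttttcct
FKF1: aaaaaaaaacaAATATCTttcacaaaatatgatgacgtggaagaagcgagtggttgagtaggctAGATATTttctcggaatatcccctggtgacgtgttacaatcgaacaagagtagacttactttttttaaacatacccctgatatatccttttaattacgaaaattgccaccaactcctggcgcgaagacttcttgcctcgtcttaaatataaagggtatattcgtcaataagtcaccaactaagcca
BBX8: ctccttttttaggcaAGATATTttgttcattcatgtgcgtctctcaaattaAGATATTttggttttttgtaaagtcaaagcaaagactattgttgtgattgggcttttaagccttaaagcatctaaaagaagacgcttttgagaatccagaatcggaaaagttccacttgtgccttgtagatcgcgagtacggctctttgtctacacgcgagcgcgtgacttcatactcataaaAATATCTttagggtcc

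AATATCT occurred on either strand in the 250 bases before 6 of the 20 genes called higher (30%), 3 of 24 placed genes called lower (12.5%) and 1887 of 18500 promoters of all tested genes (10.2%). The regions printed held 2 matches for LUX, 2 for FKF1 and 3 for BBX8, and the window of AT2G16365 held 2. Windows with at least 2 matches made up 0.805% of all promoters, 6 of the 20 windows of genes called higher (30%) and 0 of the 24 of genes called lower. The planned search counted only windows with or without each motif. The cutoff of 2 matches was added to it and applied to AATATCT alone. ACGTG, the core of the ABA response element, was in 6 of the 20 (30%), 4 of the 24 (16.7%) and 23.9% of all promoters. CCGAC, the core of the dehydration response element, was in 4 (20%), 3 (12.5%) and 13.2%. Each was searched alone on both strands in the same windows, none of the 3 motifs contains another, and a match of letters does not show that a protein binds there.

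The genes ELF4, COR27, FKF1, BBX8 and LUX were also compared before dehydration and at 2 h. With the score, log2 fold changes at 0 h, 2 h and 4 h were 0.29, 1.06 and 1.67 for ELF4, 0.42, 0.98 and 1.70 for COR27, and 0.16, 0.91 and 1.21 for FKF1. For BBX8 they were 0.12, 0.53 and 0.80, and for LUX 0.55, 0.43 and 0.86. At 0 h and 2 h none of the 5 was called. The change of the genotype difference from 0 h to 4 h was not called for any of them either, with adjusted p between 0.465 for ELF4 and 0.820 for LUX. These transcripts cycle daily, and because the hour of harvest is not known, a shift in timing and a change in level cannot be told apart.

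**Figure D3:**
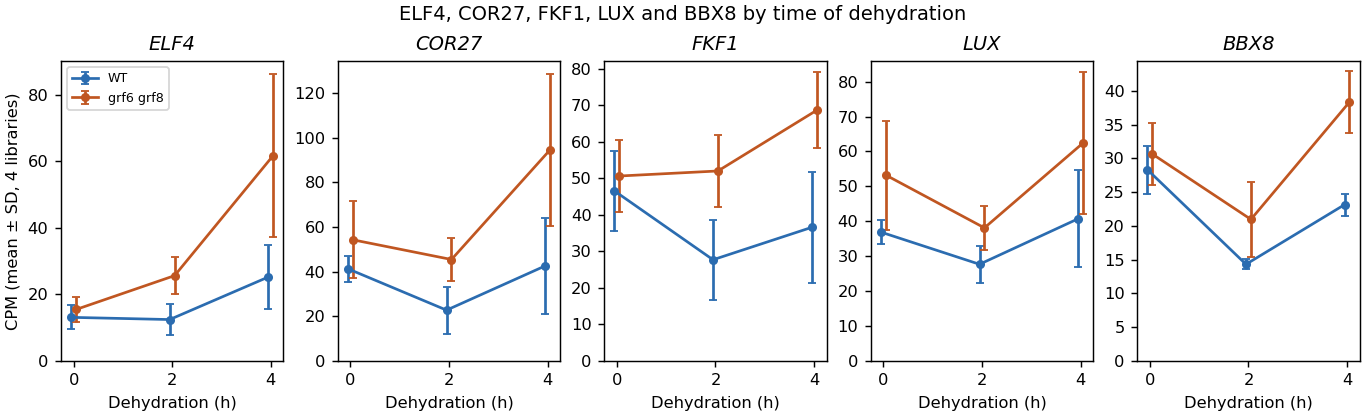
Mean level in CPM (vertical axis, bars are SD of 4 libraries) of 5 genes called higher at 4 h against hours of dehydration, WT in blue and grf6 grf8 in orange. ELF4 averaged 25.2 CPM in WT and 61.8 CPM in the mutant at 4 h, and 13.1 and 15.4 CPM at 0 h.

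Disease resistance genes of the NLR class were among the genes called lower. NLR proteins are immune receptors inside the cell that detect pathogen effectors, and their amount is held in check because excess causes autoimmunity. RefSeq product names marked 151 NLR genes in the files, of which 119 were tested. With the score 6 were called lower and 0 higher, 106 were below 0, and the median log2 fold change was -0.34, against 8953 of 18841 genes below 0 and a median of 0.02 overall. At an unadjusted p under 0.05, 44 were lower (37.0%, against 5.51% of all genes) and 2 higher (1.68%, against 7.35%). Their CPM did not overlap between genotypes, with the mutant lower, for 15 (12.6%, against 1.05%). This grouping was made after the called genes had been seen, and it was therefore not tested as a set.

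The mean log2 CPM of the 119 genes was 3.06, 3.06, 3.19 and 3.37 in WT replicates 1 to 4 and 2.97, 2.96, 2.82 and 2.67 in the mutant replicates. Each mutant library was below each WT library, and within each genotype the libraries rich in division transcripts were the highest. The TIR class (79 tested, 70 below 0, median -0.33) and the CC class (22 tested, 21 below 0, median -0.41) gave like counts. DESeq2 called 12 lower with the score and 4 without it. In edgeR without the score the median was -0.32 with 0 called (1 with the stricter filter on low counts and 1 without mutant replicate 3), and without the 3 rich libraries it was -0.27 with the score, with 102 of 118 below 0 and 0 called. With the score it was -0.08 at 2 h and -0.24 at 0 h.

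**Figure D4:**
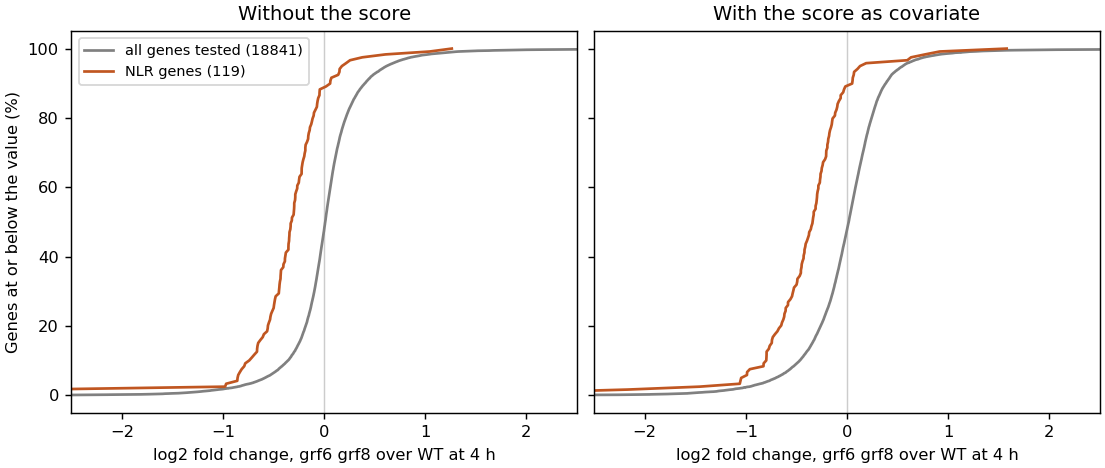
Cumulative share of genes (vertical axis, percent) by log2 fold change of grf6 grf8 over WT at 4 h, without the score (left) and with it (right), for 119 NLR genes in orange and all 18841 genes tested in grey. The NLR curve lies to the left of the grey one, with medians of -0.32 and -0.34 against 0.01 and 0.02. Values beyond 2.5 in either direction are outside the axis.

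SNC1 (AT4G16890, chr4:9500271-9505972, minus strand), a TIR-class receptor known from a gain-of-function allele with constant defence, stood at 100.2, 113, 108 and 137 CPM in WT and at 75.6, 71.0, 72.2 and 84.2 CPM in the mutant. The genotypes did not overlap (log2 -0.62 with the score, SE 0.117, adjusted p = 0.0271, and -0.60 without it, adjusted p = 0.174). RPS6 (AT5G46470), a TIR-class receptor for a bacterial effector, stood at 41.6, 44.1, 46.0 and 77.6 CPM in WT and at 39.9, 39.0, 34.8 and 30.9 CPM in the mutant. The gap between the groups was narrow, WT replicate 4 was far above the rest, and the log2 fold change was -0.63 with the score (SE 0.118, adjusted p = 0.0271). LAZ5 (AT5G44870), another TIR-class receptor, ran from 12.8 to 17.7 CPM in WT and from 9.11 to 11.1 CPM in the mutant (-0.61, SE 0.128, adjusted p = 0.0470). Without WT replicate 4, none of the 3 was called (SNC1 -0.50, adjusted p = 0.468, RPS6 -0.47, adjusted p = 0.629, LAZ5 -0.53, adjusted p = 0.695).

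The others called were AT5G46490, a TIR-class neighbour of RPS6 (-0.79, adjusted p = 0.0271), the CC-class gene AT1G63350 (-0.79, adjusted p = 0.0225) and the TIR-class gene AT5G41550 (-3.19, adjusted p = 0.0271). AT1G63350 was steady within each genotype, at 7.12 to 7.50 CPM in WT and 3.23 to 4.86 CPM in the mutant. AT5G41550 was scarce, at 1.18 to 2.63 CPM in WT and 0.128 to 0.434 CPM in the mutant. NLR genes lie in clusters of near copies, SNC1 and RPS6 among them, and reads may have been divided between copies. PBS2, the gene of the RAR1 co-chaperone that stabilises NLR proteins, was called higher (0.43, SE 0.0886, adjusted p = 0.0425), at 17.56 to 27.1 CPM in WT and 24.0 to 36.9 CPM in the mutant, which overlap. It was not called without WT replicate 4 (0.41, adjusted p = 0.468).

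**Figure D5:**
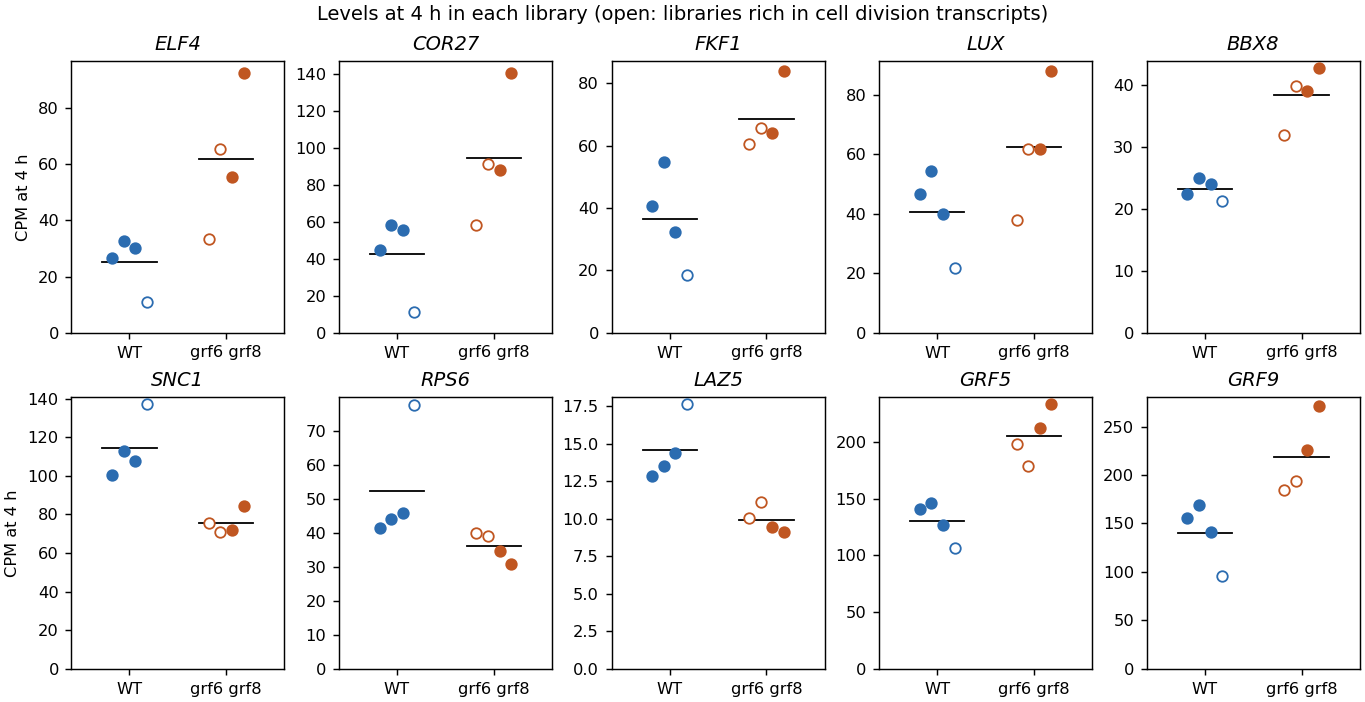
Level in CPM (vertical axis, from 0) of 10 genes at 4 h in each of the 8 libraries, WT in blue and grf6 grf8 in orange, with group means as bars and open circles for the 3 libraries rich in division transcripts. ELF4, COR27, FKF1, BBX8, GRF5 and GRF9 lie higher in all mutant libraries, SNC1, RPS6 and LAZ5 lie lower in all, and LUX overlaps.

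Defence genes downstream of these receptors gave no call. Of 21 genes of salicylate signalling and defence, 20 were below 0 with a median of -0.70, 0 were called by edgeR or DESeq2 with the score or without it, and 2 were lower at an unadjusted p under 0.05 (9.52%, against 5.51% of all genes). CPM did not overlap, with the mutant lower, for 4 of them (19.0%, against 1.05%). WT replicates differed widely. PAD4, a partner of EDS1 in TIR-class signalling, stood at 72.5, 86.6, 173 and 98.1 CPM in WT and at 48.1, 41.2, 70.1 and 75.1 CPM in the mutant, with mutant replicate 4 inside the WT range (-0.82, SE 0.36, adjusted p = 0.344). NPR1, a receptor of salicylate, had -0.33 (adjusted p = 0.336), and EDS5, which exports a salicylate precursor from the chloroplast, -1.02 (adjusted p = 0.424).

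Glucosinolates are sulphur compounds that deter insects and microbes. All 18 genes of their synthesis were below 0, with a median of -0.56, and 1 was called lower, while 5 were lower at an unadjusted p under 0.05 (27.8%, against 5.51% of all genes). Their mean log2 CPM was 4.42, 4.46, 4.61 and 5.57 in WT replicates 1 to 4 and 4.62, 4.48, 4.59 and 3.53 in the mutant replicates. Replicates 1 to 3 of both genotypes were close, WT replicate 4 was the highest and mutant replicate 4 the lowest. The called gene was MYB51 (AT1G18570), which activates indolic glucosinolate synthesis, at 11.04, 12.6, 26.3 and 44.9 CPM in WT and at 12.6, 8.96, 9.90 and 6.74 CPM in the mutant. The groups overlapped in raw level, and the log2 fold change was -1.44 with the score (SE 0.285, adjusted p = 0.0381) and -1.18 without WT replicate 4 (adjusted p = 0.630). CYP83B1 (-0.94, adjusted p = 0.295) and UGT74C1 (-0.50, adjusted p = 0.268), enzymes of the pathway, were not called.

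Among the other genes called lower, CYP710A2 (AT2G34490), a sterol desaturase, stood at 3.77, 4.25, 5.49 and 23.3 CPM in WT and at 3.34, 5.11, 1.70 and 1.09 CPM in the mutant. The high value of WT replicate 4 dominates its WT mean (-2.02 with the score, SE 0.335, adjusted p = 0.0128, and -1.86 without that library, adjusted p = 0.328). AT2G24600, an ankyrin repeat protein, was at 13.3, 22.5, 18.8 and 28.3 CPM in WT and at 5.76, 9.88, 6.21 and 4.36 CPM in the mutant, without overlap (-1.75, adjusted p = 0.0225). Without WT replicate 4 it was not called (-1.62, adjusted p = 0.375).

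Genes of cell walls and growth called lower were LNG2, which lengthens leaf cells (-0.84, adjusted p = 0.0225), QUA3, a putative pectin methyltransferase (-0.88, adjusted p = 0.0425), WAT1, a vacuolar auxin transporter (-0.77, adjusted p = 0.0425), and AFB5, an auxin receptor (-0.50, adjusted p = 0.0425). The highest level of each was in WT replicate 4 (97.4, 25.7, 45.1 and 70.3 CPM), and all 4 overlapped between genotypes. Without that library none was called, with adjusted p of 0.328, 0.699, 0.476 and 0.721. Other genes of the 10 lowest that reached 10 CPM were CYP706A1 (-1.45), AT4G27300, a receptor-like kinase (-1.51), AT5G08760 (-1.20) and AT2G20950 (-1.01), none of them called without WT replicate 4.

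Other genes called higher included AT1G04000, of unknown function (0.90, adjusted p = 0.0128), AT1G56300, a DnaJ-domain protein (0.79, adjusted p = 0.0271), and CRF7, a factor of the cytokinin response factor group (0.76, adjusted p = 0.0381). FER4, a ferritin that stores iron in plastids and mitochondria, ran from 35.2 to 51.9 CPM in WT and from 60.9 to 65.7 CPM in the mutant, without overlap (0.55, adjusted p = 0.0336). None of these 4 was called without WT replicate 4, where the adjusted p was 0.179, 0.366, 0.588 and 0.476.

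In edgeR's test with all libraries, no gene of the ABA and dehydration response was called in either direction, with the score or without it. Of 22 dehydration effector genes such as dehydrins and LEA proteins, which protect drying cells, 20 were above 0 and the median log2 fold change was 0.51 with the score and 0.31 without it. At an unadjusted p under 0.05, 8 were higher (36.4%, against 7.35% of all genes) and 0 lower. LEA18 had the smallest adjusted p of them, at 47.6, 53.1, 78.2 and 16.4 CPM in WT and at 75.9, 38.0, 105 and 103 CPM in the mutant (1.16, SE 0.286, adjusted p = 0.144), and it was the 1 member that DESeq2 called with the score (adjusted p = 0.0190). Mutant replicate 2 lay below 3 WT libraries. LEA7 (0.92, adjusted p = 0.211) and RAB18 (0.97, adjusted p = 0.280) followed. The mean log2 CPM of the 22 genes was 8.52, 8.80, 8.64 and 7.80 in WT replicates 1 to 4 and 8.66, 8.40, 8.89 and 9.06 in the mutant replicates, so the libraries rich in division transcripts were the lowest of each genotype.

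Within the ABA pathway itself, the receptors (8 tested, median 0.17), the clade A PP2C phosphatases that they inhibit (8 tested, median 0.19), the SnRK2 kinases that are thereby freed (10 tested, median 0.12), the ABF and ABI factors (5 tested, median 0.22) and genes of ABA synthesis and breakdown (11 tested, median -0.02) gave 0 calls in edgeR or DESeq2. At an unadjusted p under 0.05, 1 receptor, 1 SnRK2 kinase, 1 ABF or ABI factor and 1 gene of ABA synthesis and breakdown were higher, and 1 SnRK2 kinase and 2 genes of ABA synthesis and breakdown were lower. The receptor PYL5 had 0.76 (adjusted p = 0.209), the phosphatases PP2CA 0.26 (adjusted p = 0.508) and ABI1 0.16 (adjusted p = 0.630), and SNRK2.6, the kinase that drives stomatal closure, 0.36 (adjusted p = 0.349). ABF2 and ABF4 had 0.28 (adjusted p = 0.519) and 0.22 (adjusted p = 0.360). NCED5, a minor ABA synthesis gene, was low in both genotypes, at 1.46 to 4.46 CPM in WT and 0.644 to 1.11 CPM in the mutant, and did not overlap, yet was not called (-1.73, adjusted p = 0.118).

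All 11 drought transcription factors tested were above 0, with a median of 0.27 with the score and 0.01 without it. None was called by edgeR with all libraries or by DESeq2, 3 were higher at an unadjusted p under 0.05 (27.3%, against 7.35%), and DREB2A was called without WT replicate 2 (0.93 with the score, adjusted p = 0.0276). DREB2A (0.64, adjusted p = 0.249), RD26 (0.40, adjusted p = 0.255) and ORE1 (0.44, adjusted p = 0.266) had the smallest adjusted p with all libraries. The proton pumps, targets of 14-3-3 binding, gave 0 calls by edgeR or DESeq2 among 9 tested with a median of 0.03. At an unadjusted p under 0.05, 1 pump was higher (11.1%, against 7.35% of all genes) and 2 were lower (22.2%, against 5.51%). AHA2, a main pump, had -0.69 (adjusted p = 0.307). Of 49 nuclear photosynthesis genes, 46 were above 0 with a median of 0.30 with the score and 0.02 without it, and 0 were called by edgeR or DESeq2. At an unadjusted p under 0.05, 2 of them were higher (4.08%, against 7.35% of all genes). LHCB1.5, PSAE1 and PSBR had 0.63, 0.57 and 0.42 (adjusted p = 0.366, 0.381 and 0.449). These lists fell with the score (median slopes of -0.47 for the drought factors and -0.32 for photosynthesis), and an adjusted p that misses the threshold does not show that the genotypes are alike.

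The libraries of both genotypes at 0 h and 2 h hold other measurements of the 45 genes, and whether they come from other plants is not given in the sources used here. With the score, 4 of the 45 were called at 2 h (GRF6, MSTRG.13239, GRF5 and GRF9), against 0.0372% of all genes, and 4 at 0 h (GRF6, MSTRG.13239, GRF8 and GRF5), against 0.0478%. Of the 20 higher genes 16 were above 0 at 2 h and 17 at 0 h, and of the 25 lower genes 24 and 22 were below 0. Their medians were 0.21 and 0.18 for the higher genes and -0.27 and -0.28 for the lower genes, against 0.76 and -0.88 at 4 h. The change from 0 h to 4 h was called for 0 of the 45 (0.00531% of all genes) and that from 2 h to 4 h for 0 (0%), while 34 and 29 had an unadjusted p under 0.05, against 6.70% and 5.17% of all genes. The genes were chosen at 4 h, so larger values there follow from the choice.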

How the data were processed

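mRNA of 24 libraries (6 groups of 4) was analysed from files with 1 row per gene. The deposited values are expected counts, whole numbers estimated by the authors and not scaled to library size, and FPKM computed by the authors, which were used only to compare 14-3-3 levels. Per the submitters' processing notes, the genome was TAIR10 and the tools, with no role stated, were RSEM, StringTie 1.3.1, edgeR, fastp 0.18.0, HISAT2, DESeq2 and Bowtie2 2.2.8. Symbols and coordinates are from RefSeq TAIR10.1, which paired 26719 loci and lacked 697, and 248 MSTRG genes have no locus.

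Counts were tested with edgeR 4.0.16 in R 4.3.3 (filterByExpr on the 6 groups, TMM scaling, quasi-likelihood, two-sided, Benjamini-Hochberg over 18841 genes) in 1 fit of all 24 libraries, again with the cell division score (tested members of 32 DNA replication and mitosis genes, prior count 2) as covariate. Those genes get no call there. The fit was also run on counts simulated from its own model, which cannot show whether that model holds for these libraries. P-values measure the spread between these libraries, since the labels name no separate batches or cultures. Named genes are GRF6, GRF8, other 14-3-3 genes, all genes called without the score, the 10 highest and 10 lowest called with it at a mean of at least 10 CPM, and up to 3 members of each described list. Other genes, the NLR grouping and the promoters shown were chosen after their values were seen. The comparison and its 38 lists were chosen with earlier results of these data known. Alternatives were RLE factors, DESeq2 1.42.0, no or a stricter low-count filter (mean of 5 CPM, over 1 CPM in 4 libraries), the replicate number as a block, the 8 libraries alone, a 1.5-fold minimum, each library left out, the rich libraries left out, and a score from either list. Leaving out the 5 libraries of the series with a score over 1 was added after seeing the data. Some start regions are not reported here.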

Additional observations from a re-analysis of the deposited data

Results flagged for a closer look

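In 19 of 170 groups of 4 libraries examined at 4 h, 1 library lay far from the other 3. The cutoff flags about 1 in 20 groups of independent, normally spread values. That rate does not apply here, since the groups share the same 8 libraries and many of the genes were chosen from these data. In 16 of the 19 it was WT replicate 4. Its cell division score was 2.17. It was low in PP2CA (734 CPM), ORE1 (137 CPM), AT1G04000 (8.07 CPM), FER4 (35.2 CPM), NF-YC11 (50.2 CPM) and ERF1-1, a translation release factor (61.9 CPM). It was high in BG1, which frees ABA from its glucose ester (3150 CPM, next highest WT library 604 CPM), ABI5 (49.2 CPM), AHA2 (213 CPM), SNRK2.9 (1.9 CPM), CYP710A2 (23.3 CPM), QUA3 (25.7 CPM), AFB5 (70.3 CPM), AT5G37940 (8.03 CPM) and RPS6 (77.6 CPM). AT5G37940 had at most 0.129 CPM in the other WT libraries. Its call at 4 h rests on the covariate, since mutant replicates 1 and 2 had 0.859 and 0.578 CPM and the others 0.

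In the mutant, replicate 4 had the highest GRF6 level (63.9 CPM) and a low AHA4 level (0.77 CPM), and replicate 2 had the highest AT5G41550 level (0.434 CPM). What sets these libraries apart was not tested.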

How the results depend on the processing

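Without the score, called genes (1 higher, 2 lower) were 3 and 13 with DESeq2, and the higher count was 2 with the stricter filter and 0 with the 8 libraries alone, with the 1.5-fold minimum and without the 3 or 5 rich libraries. Leaving out 1 library gave 0 to 2 higher and 2 to 4 lower. With the score (20 and 25), they were 165 and 89 with DESeq2, 3 and 6 with the stricter filter, 0 and 2 with the 8 libraries alone and with the 1.5-fold minimum, 1 and 3 without the 3 or 5 rich libraries, 5 and 8 with a score from DNA replication genes, and 12 and 14 with one from mitosis genes. The higher count was 13 with no filter. Leaving out 1 library gave 1 to 20 and 2 to 26, lowest without WT replicate 4 (1 and 2). The score's genotype difference stayed above 0 (0.19 to 1.24 with 1 library left out).

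Leaving out WT replicate 4 reversed the sign without the score for NF-YC11 (-0.025 to 0.27 over all libraries left out in turn, below 0 also without grf6 grf8 replicate 4), QUA3 (-0.86 to 0.39), AT5G37940 (-3.33 to 2.49) and AFB5 (-0.48 to 0.051). With the score GRF10 (-0.0079 to 0.18) reversed without grf6 grf8 replicate 3. The cause was not tested. None of the 45 called genes reversed with the score under any alternative.

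The labels name no pairing by replicate number. Correlations of departures from the group means ran from -0.78 to 0.40 for same-numbered libraries (1 of 4 over 0.1). The highest were 0.73 and 0.72, for WT replicate 4 with mutant replicates 1 and 2, the libraries rich in division transcripts. They follow the uneven score, so they cannot show whether same-numbered libraries belong together. With replicate numbers as a block, 9 genes were called higher and 7 lower with the score, and 1 and 3 without it.

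In all, 8 of the 45 called genes lay under 10 CPM in both genotypes. Of the 45, 15 overlap another annotated gene. The score stands for tissue makeup only as far as 31 genes do.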

Other observations

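Floral organ genes were uneven among libraries. The summed level of 8 of them (6 tested, all above 0 with the score, median log2 fold change 1.31, 0 called by edgeR or DESeq2, 0 at an unadjusted p under 0.05) was 6.96 to 14.4 CPM in WT and 28.7, 18.9, 3.69 and 37.6 CPM in mutant replicates 1 to 4. Mutant replicate 3 lay below all WT libraries and the other mutant libraries above them. The AP1, PI, SEP1 and SEP3 genes specify flower meristems and organs, and they are of scarce use in leaves. The part of such tissue in other results was not tested.

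Auxin-induced Aux/IAA genes, which repress auxin signalling, were below 0 in all 12 tested at 4 h (median -0.47, 0 called by edgeR or DESeq2), with medians of -0.23 at 2 h and 0.16 at 0 h. At 4 h, 3 were lower at an unadjusted p under 0.05 (25%, against 5.51% of all genes). Raffinose and galactinol genes, which make protective sugars, were below 0 in all 5 tested (median -0.39, 0 called by edgeR or DESeq2, 0 at an unadjusted p under 0.05).

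Of 44 called genes with a locus, 20 lie on chromosome 5 (45.5%), which holds 23.4% of the genes tested. The 20 include GRF6 and GRF8 themselves. Within 250 kb of GRF6 and GRF8 there are 110 and 107 other tested genes, of which 0 were called, against 0.239% of all genes. At that share, windows of this size would usually hold no call, so the 0 says little, and linkage to the mutations was not tested.

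The 1 gene called by edgeR for a change of the genotype difference from 0 h to 4 h was AT5G07810, an SNF2 helicase gene. It averaged 3.44 ± 0.659 CPM in WT and 0.333 ± 0.0262 CPM in the mutant at 0 h (SD, n = 4), 1.29 and 1.12 CPM at 2 h, and 2.44 ± 0.680 and 2.01 ± 0.292 CPM at 4 h (change in log2 difference 3.11 with the score, adjusted p = 0.000109 in edgeR's quasi-likelihood test).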
